A study of Plecoglossus altivelis with 9 samples.

Results

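The 200 brightest probes of untreated ayu macrophages were taken from 49077 probes of a custom 1-colour array of ayu (Plecoglossus altivelis). They were chosen by their brightness without LECT2, so their levels at 0 μg/ml are a description and were not tested. To be eligible, a probe had to exceed background well on each of the 9 arrays and carry no outlier mark, which held for 14718 probes. The 200 members, 0.408% of the array, had the highest mean level over the 3 arrays at 0 μg/ml. Level here means the log2 of the processed intensity minus the 75th percentile of that array, so a level of 8 is 8 doublings above the percentile.

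All 9 samples were adherent cells from ayu head kidney, kept in culture medium with fetal calf serum, penicillin and streptomycin. The cells received LECT2 for 3.5 h at 0, 0.5 or 5 μg/ml, and each dose had 3 arrays. The replicates of a dose came from separate experiments on different fish. The labels do not state the strain, age or sex of the fish or where the LECT2 came from.

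Macrophages are phagocytes that engulf microbes and debris and release cytokines, and in teleosts the head kidney is a blood-forming organ from which they can be cultured. LECT2, leukocyte cell-derived chemotaxin 2, is a secreted protein known as an attractant of leukocytes. In animal cells generally, a small number of genes supplies a large part of the mRNA, among them genes for the ribosome, the cytoskeleton and energy metabolism. The probes carry numbers, and none is paired with a gene. Which of the 200 probes report such genes is therefore unknown here, and the macrophage identity of the cells could not be checked against markers. The brightness of a probe also depends on its sequence and labeling, so the order of the probes is not an order of transcript amounts.

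The brightest member, A_1000000_P0004053, had levels of 11.17, 10.88 and 11.31 on the 3 arrays at 0 μg/ml. Its levels were 11.32, 10.76 and 10.69 at 0.5 μg/ml, and 10.80, 10.75 and 10.11 at 5 μg/ml. The highest array at 5 μg/ml lay below every array at 0 μg/ml but above 2 of the 3 at 0.5 μg/ml. The next members were A_1000000_P0000023 (10.91 ± 0.30), A_1000000_P0010464 (10.90 ± 0.11), A_1000000_P0023183 (10.69 ± 0.27) and A_1000000_P0022266 (10.61 ± 0.35; mean level at 0 μg/ml, SD, n = 3). The steps between these neighbors were no larger than most of these SDs. At the lower end, A_1000000_P0054744 (7.298) and A_1000000_P0025517 (7.295) were the last members. A_1000000_P0022186 (7.291) and A_1000000_P0019886 (7.288) were the first probes outside. The SDs of these 4 probes over the arrays at 0 μg/ml were 0.53 to 0.77, so the border at rank 200 cuts through probes that did not differ beyond their spread. The median level of the 200 was 8.22, 7.81 and 8.25 at 0 μg/ml, 8.17, 8.07 and 8.12 at 0.5 μg/ml, and 8.27, 8.35 and 8.10 at 5 μg/ml. The lowest median was on replicate 2 at 0 μg/ml. Another 2 probes would have ranked inside but for an outlier mark, and 0 would have but for the background rule.

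The members held a large part of all the light on an array. Their summed intensity was 38.2%, 37.3% and 38.4% of the sum over all 49077 probes on replicates 1, 2 and 3 at 0 μg/ml. It was 38.9%, 37.0% and 33.3% at 0.5 μg/ml, and 34.3%, 34.9% and 31.5% at 5 μg/ml. All 3 arrays at 5 μg/ml were below all 3 at 0 μg/ml, whereas the arrays at 0.5 μg/ml overlapped with both other doses. The means were 37.9% ± 0.581 at 0, 36.4% ± 2.86 at 0.5 and 33.5% ± 1.80 at 5 μg/ml (SD, n = 3). The members were picked for high signal at 0 μg/ml, so a lower share at another dose can be partly set by the choice. The size of that part was not tested.

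The share moved most among the brightest members. The 20 members of highest rank held 12.3%, 12.3% and 12.4% of the signal at 0 μg/ml and 13.3%, 11.2% and 9.06% at 0.5 μg/ml. At 5 μg/ml they held 9.26%, 9.44% and 7.64%. The other 180 members, ranks 21 to 200, held 23.9% to 26.0% on every array. Thus the share of the larger, dimmer group spanned 1.09-fold over the 9 arrays, and that of the 20 brightest 1.74-fold.

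The share also followed the brightness of the array. The 75th percentile of the intensity ran from 139 on replicate 1 at 0.5 μg/ml to 278 on replicate 3 at 5 μg/ml, and these arrays had the highest and the lowest share. Replicate 3 at 0.5 μg/ml, the next brightest array with 240, had the next lowest share. Of the 36 pairs of arrays, 33 had the lower share on the brighter array, but the pairs come from only 9 arrays and are not independent. The intensity of the brightest probe on an array ranged 1.33-fold over the arrays, from 321926 to 428626, and that of the 200th brightest 2.29-fold, from 21035 to 48100. The ratio of the brightest to the 200th was 13.4, 16.4 and 14.1 at 0 μg/ml, 15.5, 12.0 and 9.91 at 0.5 μg/ml, and 8.78, 8.56 and 6.74 at 5 μg/ml. The brightest probe reached 41.3% to 55.0% of the scanner's saturation value, and 0 members were marked as saturated on any array. The 75th percentile was 187, 187 and 278 at 5 μg/ml against 169, 166 and 166 at 0 μg/ml. Between these doses, dose and array brightness thus went together and cannot be told apart. The part of array brightness in the lower share at 5 μg/ml was not tested.

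The 2 scans named in the file headers give the same order for 0 and 5 μg/ml. In the first scan the shares of all members were 38.2% and 38.4% at 0 μg/ml, 38.9% and 33.3% at 0.5 μg/ml, and 34.3% and 34.9% at 5 μg/ml. In the second scan, with 1 array per dose, they were 37.3%, 37.0% and 31.5%.

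Between doses the membership was largely kept. The same rule applied to the arrays at 0.5 μg/ml gave 191 of the 200 members (95.5% of each list), and at 5 μg/ml 173 (86.5% of each list). All of the 50 brightest members stayed at both doses, and 98 of the 100 brightest stayed at 5 μg/ml. Of the 27 members that dropped out at 5 μg/ml, 19 had ranks above 150 at 0 μg/ml, and 17 were still among the brightest 250. The farthest had rank 760 there. The 27 probes that took their places had levels of 3.68 to 7.26 at 0 μg/ml and of 7.55 to 9.60 at 5 μg/ml. On single arrays, the 200 brightest probes included 188, 173 and 186 of the members at 0 μg/ml, 186, 172 and 176 at 0.5 μg/ml, and 171, 174 and 165 at 5 μg/ml. The list from replicate 2 at 0 μg/ml alone thus held as many members as the list from all arrays at 5 μg/ml.

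The median SD of a member over the 3 arrays of a dose was 0.33 at 0, 0.25 at 0.5 and 0.21 at 5 μg/ml on the log2 scale. For the other 14518 probes that could be chosen it was 0.34, 0.37 and 0.25. Pooled over doses, the median was 0.29 for members and 0.36 for the others. However, it was also 0.29 for ranks 201 to 400. The error that the extraction software itself gave to a member was 10.0% of its intensity on each array (median).

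The spread between replicates was shared by many members. Replicate 2 at 0 μg/ml was the lowest of its dose for 161 of the 200 members, with a median of 0.49 below the mean of the other replicates. Replicate 3 at 5 μg/ml was the lowest of its dose for 159. Replicate 2 at 0.5 μg/ml was the lowest for 98. Before scaling, however, the median intensity of the members at 5 μg/ml was highest on replicate 3 (76150, against 57620 and 61225 on replicates 1 and 2). The 75th percentile subtracted there was 278, against 187 and 187, so the low levels of replicate 3 hold only after scaling. Across members, the levels on the arrays numbered 2 at 0 and 0.5 μg/ml had a Pearson correlation of 0.978 with each other. Each had 0.713 to 0.866 with the other 7 arrays, and those 7 had 0.883 to 0.987 among themselves (200 probes, which are not independent replicates). These 2 arrays thus stood apart. Both are of the second scan. Replicate 3 at 5 μg/ml, the other array of that scan, had 0.778 and 0.803 with them and 0.895 to 0.949 with the remaining 6. Why the 2 arrays stood apart was not tested. Without them the pooled median SD of the members was 0.16. They were picked after they were seen to stand apart, so a lower SD was partly set in advance. The ranking used the first of the 2 arrays, replicate 2 at 0 μg/ml. Without it, 188 of the 200 members were chosen again.

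Single members ranged widely in stability. A_1000000_P0021686 was the steadiest, with levels of 8.15, 8.08 and 8.06 at 0 μg/ml, 8.14, 8.24 and 8.11 at 0.5 μg/ml, and 8.24, 8.16 and 8.30 at 5 μg/ml. Its pooled SD was 0.06, and A_1000000_P0034493 (0.08) and A_1000000_P0019934 (0.11) came next. The 9 levels of A_1000000_P0021686 spanned less than the median SD of a member. The largest pooled SDs were those of A_1000000_P0071670 (1.10), A_1000000_P0025249 (1.06) and A_1000000_P0054744 (0.84). A_1000000_P0025249 had levels of 9.71, 7.60 and 9.75 at 0 μg/ml, 9.59, 7.33 and 9.62 at 0.5 μg/ml, and 9.29, 8.61 and 9.06 at 5 μg/ml. Its low values were on the 2 arrays that stood apart. A_1000000_P0054744, in contrast, was high on them, with levels of 8.19 and 8.06 against 6.92 and 6.78 on the other arrays at 0 μg/ml and 6.53 and 6.12 at 0.5 μg/ml. Over pairs of members, the correlation across the 9 arrays had a median of 0.39, and the central 90% of the pairs ran from -0.58 to 0.92.

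In the table that the authors deposited beside the scanner values, many members could not be told apart. Each column of that table is the processed intensity times 1 constant, up to a highest value that many probes share. The number of members at this ceiling was 74, 51 and 76 at 0 μg/ml, 60, 66 and 103 at 0.5 μg/ml, and 86, 89 and 122 at 5 μg/ml. Replicate 3 at 5 μg/ml, the brightest array, had the most, with 61.0% of the members. Replicate 2 at 0 μg/ml had the fewest, with 25.5%. Divided by the column's constant, the ceiling came to a processed intensity of 65535 or 65536 on every array. The brightest member on an array was 4.91 to 6.54 times it in the scanner values. The sources used here do not say why the table was capped.

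At the ceiling on all 9 arrays were 44 members, on some arrays 87 and on no array 69. The 42 brightest members were all at the ceiling throughout, and the first member that never reached it had rank 82. Only 15 probes outside the 200 were at the ceiling on any array, 14 of them on no array at 0 μg/ml. For the 44 members at the ceiling throughout, the authors' table gives 1 common difference of -0.18 between 5 and 0.5 μg/ml on the log2 scale. In the scanner values their differences ran from -0.88 to 0.21, with 13 higher and 31 lower. Between 5 and 0 μg/ml the common difference is -0.13, and the scanner values ran from -1.15 to 0.32.

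To ask whether the members changed with the LECT2 dose, limma was fitted over 19995 probes on all 9 arrays. In the comparison of 5 with 0.5 μg/ml, the fold changes use no array that ranked the members, although all 9 arrays decided which probes were eligible. The arrays at 0 μg/ml also enter the estimate of the spread and thus the p-values. A fit on the 6 arrays at 0.5 and 5 μg/ml alone also called 0 members, with a lowest adjusted p of 0.167 in limma. It called only 0.04% of all tested probes. Deviations common to equal-numbered arrays at 0 and 0.5 μg/ml are shared with the rule in either fit. In the fit on all 9 arrays, no member passed an adjusted p of 0.05 in limma. Thus 0 were higher and 0 lower, against 0.175% of all tested probes higher and 0.0% lower. At an unadjusted p under 0.05 there were 8 members (4.0%) against 8.77% of all tested probes. The log2 fold changes of the members had a median of 0.05 and ran from -1.10 to 1.37, with 118 above 0 and 178 within 0.5 of it. Over all tested probes the median was 0.04. The 95% interval of a member's change, not adjusted for the number of probes, reached 0.60 to each side in the median. A typical change below that size would thus not have been told from 0. A call after adjustment needed more. A_1000000_P0019835 changed by 1.37, with 0.61 to each side, and had an adjusted p of 0.120 in limma. For 156 members the interval lay within 1 on the log2 scale, that is, within a 2-fold change.

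The arrays at 5 μg/ml did not overlap with those at 0.5 μg/ml for 17 members that were higher (8.5%) and 3 that were lower (1.5%). The background is 8.22% of probes higher and 4.51% lower, so the share of higher members was near it and that of lower members below it. Ranks 201 to 400 had 31 higher and 0 lower, and 0 calls in limma.

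The change between 0.5 and 5 μg/ml went with the rank of a member at 0 μg/ml. Among the 20 brightest, 18 were lower at 5 than at 0.5 μg/ml, with a median change of -0.26. The median was -0.03 for ranks 21 to 50, 0.03 for ranks 51 to 100, 0.09 for ranks 101 to 150 and 0.16 for ranks 151 to 200, where 38 of 50 were higher. For ranks 201 to 400 it was 0.13. The medians varied with the scaling and with the array. After quantile normalization, which gives every array the same distribution, the medians were -0.03 for the 20 brightest and -0.03 for ranks 151 to 200. That step gives probes of equal rank equal values, so medians near 0 were largely set in advance. In the unscaled intensity, the 20 brightest differed by 0.01 in the median and ranks 151 to 200 by 0.43, while the 75th percentile differed by 0.27. Against replicate 1 at 0.5 μg/ml alone, the dimmest array, all 20 of the brightest members were lower at 5 μg/ml, with a median of -0.53. Against replicate 2 alone, 17 of 20 were lower and the median was -0.19. Against the bright replicate 3 alone, 10 of 20 were lower and the median was 0.00. For ranks 151 to 200 the medians were 0.12, 0.31 and 0.04 against replicates 1, 2 and 3. When arrays were scaled on the probes well above background throughout, the medians were -0.32 for the 20 brightest and 0.10 for ranks 151 to 200, and with normexp they were -0.16 and 0.26. In the authors' table the medians were -0.18 for the 20 brightest and 0.25 for ranks 151 to 200. All of the 20 brightest are at its ceiling on every array, so there they share 1 common difference. The ranks were set on the arrays at 0 μg/ml. Deviations on these arrays correlated with those on arrays of equal number at 0.5 μg/ml (0.380, 0.812 and 0.680). With 5 μg/ml the correlations were 0.407, 0.147 and -0.111. The order of the changes can therefore be partly set by the ranking itself. The parts of the ranking and of array brightness in this order were not tested.

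The highest fold change between 0.5 and 5 μg/ml was that of A_1000000_P0019835. Its levels were 7.61, 6.90 and 7.57 at 0 μg/ml, 8.24, 7.75 and 8.16 at 0.5 μg/ml, and 9.67, 9.34 and 9.26 at 5 μg/ml. The 3 doses did not overlap. The log2 fold change of 5 against 0.5 μg/ml was 1.37 (standard error 0.27), with an adjusted p of 0.120 in limma. It passed with the replicate number as a block, with the scan as a block, and with normexp background correction, with changes of 1.37 to 1.51. In the authors' table its change was 0.32, and there it was at the ceiling on all 3 arrays at 5 μg/ml and 1 at 0.5 μg/ml.

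The next highest was that of A_1000000_P0019861, with levels of 8.77, 7.47 and 8.84 at 0.5 μg/ml and 9.82, 9.10 and 9.38 at 5 μg/ml. The groups did not overlap, and the change of 1.08 had an adjusted p of 0.567 in limma. At 0 μg/ml it had 8.23, 6.69 and 8.17, with the low value on replicate 2, as at 0.5 μg/ml. These are the 2 arrays that stood apart. In the authors' table its change between 0.5 and 5 μg/ml was 0.24, and there it was at the ceiling on all 3 arrays at 5 μg/ml and 1 at 0.5 μg/ml.

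The lowest fold changes did not pass the test either. A_1000000_P0071670 had levels of 7.64, 8.70 and 7.00 at 0 μg/ml, 6.62, 8.68 and 5.75 at 0.5 μg/ml, and 5.13, 5.94 and 6.67 at 5 μg/ml. The 2 high values were on the arrays that stood apart, and the change from 0.5 to 5 μg/ml of -1.10 had an adjusted p of 0.685 in limma. A_1000000_P0060517 had levels of 9.46, 10.00 and 9.36 at 0 μg/ml, 9.82, 9.91 and 8.28 at 0.5 μg/ml, and 8.59, 8.63 and 8.15 at 5 μg/ml. Its 3 arrays at 5 μg/ml lay below those at 0 μg/ml, but replicate 3 at 0.5 μg/ml lay among them. Its change of -0.88 had an adjusted p of 0.584 in limma.

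Against 0 μg/ml the values are a description, since the rule used those arrays. At 5 μg/ml, 2 members were past the threshold in limma, both higher, where 0.98% of all tested probes were higher and 0.095% lower. They were A_1000000_P0019835, with a log2 fold change of 2.06, and A_1000000_P0025560, with 1.26, the latter named after its values were seen. A_1000000_P0025560 had levels of 7.26, 7.37 and 7.50 at 0 μg/ml, 7.37, 7.77 and 7.82 at 0.5 μg/ml, and 8.69, 8.77 and 8.44 at 5 μg/ml. It was thus higher on every array at 5 μg/ml than on any other array. A_1000000_P0025560 was no longer called when any 1 array at 0 or at 5 μg/ml was left out. Of these fits, only those without replicate 1 or replicate 2 at 5 μg/ml did not call A_1000000_P0019835. Over all members, the changes had a median of 0.09 and ran from -1.87 to 2.06, with 121 above 0. At 0.5 μg/ml, 0 members passed, as did 0.0% of all tested probes. An unadjusted p under 0.05 in limma was reached there by 1 member (0.5%), against 1.16% of all tested probes. The members' changes at 0.5 μg/ml ran from -0.77 to 0.69 with a median of 0.02.

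The numbers in the probe names were not used by the rule and were unevenly spread over the members. Numbers from 15001 to 30000 were carried by 132 members (66.0%), against 37.4% of the probes that could be chosen and 27.8% of the array. Numbers up to 5000 were carried by 54 members (27.0%), against 8.78% and 6.65%. Only 8 members (4.0%) had numbers over 30000, against 35.8% and 47.4%. No source used here says what the numbers stand for. In 18 pairs, members had consecutive numbers, and their levels differed by 0.01 to 2.82, with a median of 0.55. Whether such probes share a transcript is not known from the files, so the 200 members need not be 200 genes. On the slide the members were spread over the 4 quadrants of the array, with 42 to 58 in each.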

How the data were processed

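RNA of 9 macrophage samples was labeled with Cy3 and hybridized to 1 array each. The authors deposited the intensity of each spot from Agilent Feature Extraction 10.7.3.1, background-subtracted, detrended within the array and not normalized between arrays. They also deposited a table of scaled and capped intensity values. Replicate 3 at 5 μg/ml, holds intensities with only 3 significant digits. Doses and replicate numbers were taken from titles and treatments. Another label field gives 0 μg/ml throughout, and the text on RNA extraction describes plant material. Neither was used.

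From these files, the log2 intensity minus the 75th percentile over 49077 probes was taken for each array. The 1319 control spots were left out. Doses were compared with limma 3.58.1 in R 4.3.3 (two-sided, all 9 arrays, dose only) over the 19995 probes that exceeded background well on each array of 1 dose or more, with Benjamini-Hochberg adjustment. The test was checked on simulated data with independent noise on each array, so not for deviations that arrays share. The members and rules were chosen with earlier results of these data known. The probes named were the 5 brightest, those at the border, those with the 3 largest and 3 smallest SDs, and those with the 2 largest rises and falls. Gene lists and markers were not run, since the files name no genes. At 0 and 0.5 μg/ml, arrays of equal number had deviations from the group mean that correlated (0.380, 0.812 and 0.680). Between 0 and 5 μg/ml the correlations were 0.407, 0.147 and -0.111, and between 0.5 and 5 μg/ml 0.409, 0.245 and -0.0379. The link was seen in the data and is not given by the labels. The second scan held the arrays numbered 2 at 0 and 0.5 μg/ml and the array numbered 3 at 5 μg/ml. For the arrays numbered 2 at 0 and 0.5 μg/ml, number and scan thus cannot be told apart. The main fit did not use the link, and pairing entered only in the alternative with the replicate number as a block. The number of arrays limits the precision.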

Additional observations from a re-analysis of the deposited data

How the results depend on the processing

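Under the alternatives run, 188 to 200 of the 200 members were chosen again. All of these alternatives ranked arrays at 0 μg/ml that the rule had used, so they are not an independent check. The share of signal depended on what was summed. At 0 μg/ml it was 39.3% when only the probes well above background throughout were summed, 35.5% with raw median signals minus local background, and 28.2% in the capped table of the authors, where it was 27.0% at 0.5 and 24.2% at 5 μg/ml. For the top 100 it was 29.1%, 27.4% and 23.9%, and for the top 400 48.1%, 46.9% and 44.9% at 0, 0.5 and 5 μg/ml. Leaving out 1 array of the dose gave 37.7% to 38.3%, 35.1% to 37.9% and 32.9% to 34.6%. The pooled SD of members was 0.19 after quantile normalization, 0.21 to 0.33 with 1 array left out (lowest without replicate 2 at 0 μg/ml), and 0.16 without the arrays numbered 2 at 0 and 0.5 μg/ml, an alternative chosen after seeing the data.

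Of the members compared between 5 and 0.5 μg/ml, 1 was called with normexp, 1 with the replicate block and 1 with a scan block, the same probe (A_1000000_P0019835) each time, and 0 under the other 19 alternatives. Between 5 and 0 μg/ml, where 2 were called, 1 was called when arrays were scaled on the probes well above background throughout, 1 with quantile normalization, 1 in the first scan alone, 0 in the authors' table, 0 with no filter on dim probes, 4 with the replicate block (all higher), 6 with the scan as a block (4 higher, and A_1000000_P0071670 and A_1000000_P0054744 lower, with log2 fold changes of -1.87 and -1.11, adjusted p 0.0374 and 0.0393 in limma), and 0 to 2 with 1 array left out (0 without replicate 1 or replicate 2 at 5 μg/ml). These counts against 0 μg/ml are a description, since the arrays at 0 μg/ml ranked the members and a high value there favors a fall. Both lower probes had their highest level at 0 μg/ml on replicate 2 (8.70 for A_1000000_P0071670 and 8.19 for A_1000000_P0054744). Among all tested probes, the replicate block called 5.5% between 5 and 0 μg/ml and the scan block 4.06%. The members' shares were below these. Scaling on the probes well above background throughout called 1.15%, quantile normalization 0.74% and the first scan alone 1.24%. In the authors' table it was 0.97%, and with no filter on dim probes 0.0428%. With 1 array left out it was 0.135% to 1.86%, lowest without replicate 1 at 5 μg/ml. Between 5 and 0.5 μg/ml, normexp called 0.215% of all tested probes, the replicate block 1.22% and the scan block 0.425%. The other 19 alternatives called 0.0% to 0.32% there. The replicate block changed no call between 0.5 and 0 μg/ml. The cause of these differences was not tested.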
